A study of Mus musculus with 10 samples.

Results

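The bZIP partners of AP-1, as the term is used here, are factors that can pair or compete with JUN and FOS. They include ATF, BATF, JDP2, MAF and BACH proteins. The genes described here are Atf1, Atf2, Atf7, Batf, Batf3, Jdp2, Maff, Mafg, Mafk and Bach1. They were taken by gene symbol from tables of 17658 genes in the SB431542 experiment and 16719 genes in the T-5224 experiment. Of these 10 genes, 9 were listed in each table and Batf was listed in neither, so Batf has no value. The tables come from RNA-seq of ASZ001, a single mouse basal cell carcinoma (BCC) cell line grown in culture, in which every group was kept in low serum for 24 h. In the SB431542 experiment the cells received DMSO vehicle (n = 3 libraries) or 10 µM SB431542 (n = 3), which blocks the kinase activity of the TGFß receptor ALK5. The T-5224 experiment compared DMSO (n = 2 libraries) with T-5224 (n = 2), used at 20 µM and known to inhibit the binding of AP-1 (JUN and FOS) to DNA. The line is known to come from BCCs of Ptch1+/- mice, which all groups share, and every value rests on this 1 line.

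bZIP factors bind DNA as pairs, held together by a leucine zipper, and the choice of partner sets which sequence is read. JUN with FOS prefers the AP-1 site, whereas ATF1, ATF2 and ATF7, like the CREB factors, prefer the cyclic AMP response element (CRE). The small MAF proteins MAFF, MAFG and MAFK have no activation domain of their own, and they bind antioxidant response elements (AREs) together with NRF2, which activates, or BACH1, which represses. BATF proteins and JDP2 pair with JUN in place of FOS.

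The promoters of 5 members are shown because these are the small MAF genes, Jdp2 and Batf3, whose RNA changed most with T-5224. Each run is the 250 bases upstream of a transcription start, from RefSeq on GRCm38.p6, and each was found unchanged in mm9 at the position given. Capitals mark the CRE (TGACGTCA), its core (TGACGT, which lies within the CRE), the ARE core (TGACNNNGC) and the C/EBP-ATF composite site (TGATGNAA), searched on both strands. A match on the other strand stands as its reverse complement, as for the ARE cores of Mafg and Mafk.
Maff, chr15:79177700-79177949, plus strand: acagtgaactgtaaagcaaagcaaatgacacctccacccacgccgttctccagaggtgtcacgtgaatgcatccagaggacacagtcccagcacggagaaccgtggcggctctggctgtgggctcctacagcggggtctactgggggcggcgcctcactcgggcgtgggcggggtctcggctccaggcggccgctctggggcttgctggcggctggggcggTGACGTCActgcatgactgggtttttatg
Mafg, chr11:120494862-120495111, minus strand: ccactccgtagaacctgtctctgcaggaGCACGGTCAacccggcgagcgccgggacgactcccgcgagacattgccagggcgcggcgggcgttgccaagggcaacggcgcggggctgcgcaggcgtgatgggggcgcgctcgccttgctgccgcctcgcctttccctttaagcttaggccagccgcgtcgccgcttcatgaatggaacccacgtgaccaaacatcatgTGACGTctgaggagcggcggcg
Mafk, chr5:140267240-140267489, plus strand: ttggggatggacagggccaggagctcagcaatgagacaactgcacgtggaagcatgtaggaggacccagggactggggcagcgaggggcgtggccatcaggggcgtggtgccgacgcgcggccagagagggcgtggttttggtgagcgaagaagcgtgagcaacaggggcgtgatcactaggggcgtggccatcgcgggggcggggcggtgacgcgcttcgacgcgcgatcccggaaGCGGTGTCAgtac
Jdp2, chr12:86940116-86940365, plus strand: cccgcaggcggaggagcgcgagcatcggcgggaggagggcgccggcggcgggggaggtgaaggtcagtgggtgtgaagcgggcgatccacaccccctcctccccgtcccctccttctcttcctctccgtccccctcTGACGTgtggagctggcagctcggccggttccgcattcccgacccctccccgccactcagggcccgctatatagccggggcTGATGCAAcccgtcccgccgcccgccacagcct
Batf3, chr1:192922043-192922292, plus strand: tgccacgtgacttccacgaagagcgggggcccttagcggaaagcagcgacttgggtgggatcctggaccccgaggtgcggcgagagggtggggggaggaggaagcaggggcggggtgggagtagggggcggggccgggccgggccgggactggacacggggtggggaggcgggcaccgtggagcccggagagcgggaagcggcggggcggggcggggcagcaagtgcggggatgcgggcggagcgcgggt

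All 10 members had a promoter entry, with 14 windows between them, of which Maff and Jdp2 had 3 each. Positions are counted back from the RefSeq transcription start of the window that holds the site. The gene spans given further below are from GENCODE, and their starts differ from the RefSeq starts for some members. The core TGACGT of Mafg and the ARE core of Mafk lie inside those GENCODE spans. The full CRE lay 29 to 22 bases before the start of Maff and in no other member, and 1.77% of all 27025 genes hold it. The core TGACGT was present for 4 members (Batf, Jdp2, Maff and Mafg) and for 7.29% of all genes, and in Mafg it lay 22 to 17 bases before the start. The ARE core was present for 4 members (Atf1, Maff, Mafg and Mafk) and for 11.5% of all genes. In Maff it lay in a further window upstream, which is not printed. The composite site was found for Jdp2, 33 to 26 bases before the start, and for 3.91% of all genes. The unprinted Jdp2 windows and the last Maff window held no marked site. The AP-1 site TGANTCA was present for 7.82% of all genes and for 0 of the 10 members, which says only that these letters are not in the 250 bases. These matches are descriptions of the sequence, and binding was not measured here.

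Library depth was between 31.9 and 51.4 M reads. DMSO replicate 1 of the SB431542 experiment stood furthest from its group, with an SD of 0.272 for its log2 differences from the other libraries of the group, against 0.123 to 0.190 for the other 5 libraries of that experiment. All 9 keratinocyte and BCC markers on the list used were present in every group. Their summed level was 10860 to 11060 RPKM with DMSO and 7571 to 8114 RPKM with SB431542, and it was 14980 to 15730 RPKM with DMSO and 2389 to 2499 RPKM with T-5224. With SB431542, 4 of these 9 markers were lower (Krt5, Krt14, Krt17 and Gli1), where 10.0% of all genes tested were. With T-5224, 8 were lower and Ptch1 was higher, where 39.4% and 40.3% of all genes tested were. In these bulk libraries, fewer cells of a type and less RNA per cell cannot be told apart. Of the 8 immune markers, Cd68 alone reached a mean of 1 RPKM, with 17.6 RPKM in DMSO and 33.0 RPKM with T-5224 on average. The summed immune list ranged from 16.7 to 18.6 RPKM in DMSO and from 32.7 to 33.2 RPKM with T-5224, and from 7.09 to 10.6 RPKM in DMSO and 7.80 to 8.44 RPKM with SB431542. Of the fibroblast, endothelial and melanocyte lists, Dcn and Pecam1 alone reached 1 RPKM. Pecam1 fell with both inhibitors, from a mean of 11.3 to 4.39 RPKM with T-5224 and from 5.75 to 2.69 RPKM with SB431542. Dcn rose with both, from 1.89 to 2.55 RPKM with T-5224 and from 2.13 to 3.71 RPKM with SB431542. The part that these markers have in the results below was not tested.

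With T-5224 the bZIP partners moved in both directions, and the 5 changes larger than 2-fold were all rises. Of the 9 listed members, 6 rose (Batf3, Maff, Mafg, Jdp2, Mafk and Atf1), 2 fell (Atf2 and Bach1) and Atf7 did not pass the test (limma, adjusted p under 0.05). Among all 10809 genes tested, 40.3% were higher and 39.4% were lower. More than 2-fold, 5 of the 9 members were higher and 0 were lower, against 10.4% and 10.6% of all genes. The median log2 fold change was 1.36 for the members and 0.00 for all genes. Batf3 had a DMSO mean under the filter of 1 RPKM and passed it only through the treated libraries. The 6 rises held without each library in turn, whereas the 2 falls depended on single libraries, as given with each gene.

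With SB431542 the members moved less, and no change was larger than 2-fold. Of the 9 members, 4 were higher (Atf1, Batf3, Maff and Mafg) and 0 were lower (limma, adjusted p under 0.05, and again 4 and 0 at an unadjusted p under 0.05), against 10.2% higher and 10.0% lower among all 10842 genes tested. More than 2-fold, 0 members were higher and 0 lower, where 0.231% and 0.581% of all genes were. The median log2 fold change was 0.11 for the members and 0.01 for all genes. The count of 4 rested on several libraries: it was 4 without DMSO replicate 1, 1 without DMSO replicate 2, 1 without DMSO replicate 3, 2 without SB431542 replicate 1, 0 without SB431542 replicate 2 and 0 without SB431542 replicate 3. Adjusted p-values of these 4 genes went no higher than 0.121 in those fits, and none changed direction. The SB431542 and T-5224 effects were not tested against each other, since the tables were normalized separately and the doses differ.

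**Figure D1:**
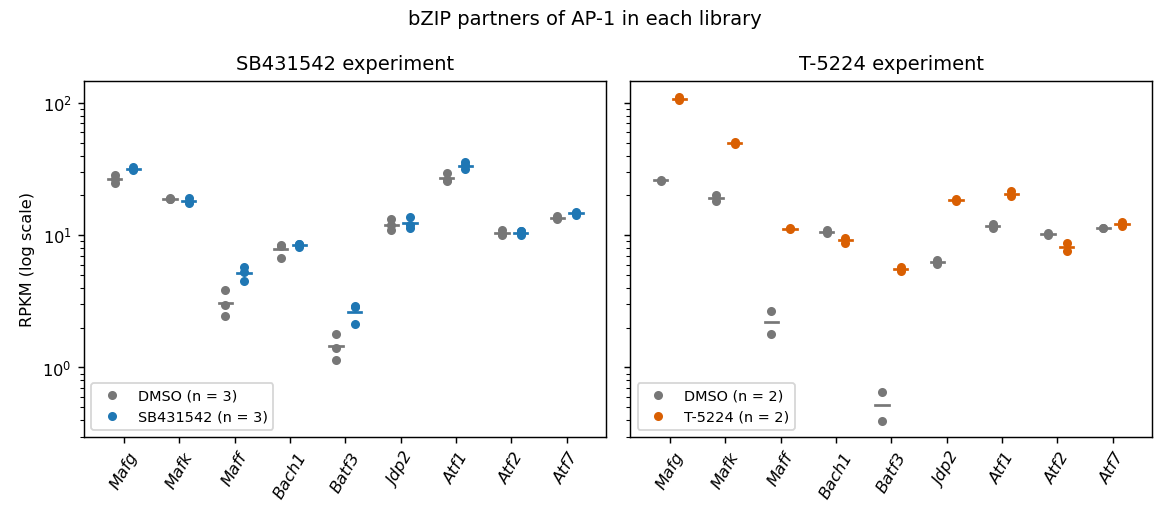
RPKM of the 9 listed members in each library, on a log axis, with the SB431542 experiment on the left and the T-5224 experiment on the right. Points are libraries and short lines are group means; with T-5224, Mafg sits at 105 and 110.4 RPKM against 25.6 and 26.3 RPKM in DMSO, whereas the Bach1, Atf2 and Atf7 points stay close to their DMSO points.

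The small MAF genes rose together with T-5224. Mafg (mm9 chr11:120486431-120494914, minus strand) was at 25.6 and 26.3 RPKM in DMSO and reached 110.4 and 105 RPKM with T-5224. The treated libraries were far above both controls, with a log2 fold change of 2.04 (SE 0.05, limma adjusted p = 4.72e-11), the 214th highest of 10809 genes. Mafk (chr5:140267467-140278607, plus strand) was at 18.3 and 20.1 RPKM in DMSO and at 48.9 and 50.9 RPKM with T-5224. The groups did not overlap, and the log2 fold change was 1.36 (SE 0.06, limma adjusted p = 4.33e-09). Maff (chr15:79177971-79189502, plus strand), the small MAF gene best known as stress-inducible, was at 2.66 and 1.78 RPKM in DMSO and at 11.3 and 11.0 RPKM with T-5224. Its DMSO libraries were the more spread, but both lay far under the treated ones, and the log2 fold change was 2.12 (SE 0.13, limma adjusted p = 4.25e-08).

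With SB431542, Maff and Mafg rose and Mafk did not pass the test. Maff was at 3.86, 2.44 and 2.97 RPKM in DMSO and at 4.49, 5.26 and 5.73 RPKM with SB431542. All treated libraries lay above all DMSO libraries, and the log2 fold change was 0.67 (SE 0.15, limma adjusted p = 0.0226). It was at adjusted p = 0.0528 and 0.0508 without DMSO replicates 2 and 3, and at 0.0857 and 0.0959 without SB431542 replicates 2 and 3. Mafg was at 24.7, 28.4 and 26.8 RPKM in DMSO and at 31.4, 31.5 and 32.8 RPKM with SB431542. These groups did not overlap either, although the log2 fold change was small at 0.26 (SE 0.06, limma adjusted p = 0.0297). For Mafg, leaving out DMSO replicate 3 or SB431542 replicate 1, 2 or 3 gave an adjusted p between 0.0606 and 0.121. Mafk was at 18.6, 19.2 and 18.6 RPKM in DMSO and at 17.6, 17.7 and 19.1 RPKM with SB431542. Here the groups overlapped, with a log2 fold change of −0.05 (95% interval −0.18 to 0.07, limma adjusted p = 0.518).

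Added together, the 3 small MAF genes gave 48.6 ± 1.40 RPKM (SD, n = 3) with DMSO and 55.2 ± 2.18 RPKM (SD, n = 3) with SB431542. T-5224 gave a sum of 168.9 ± 2.33 RPKM (SD, n = 2), where its DMSO libraries gave 47.4 ± 1.18 RPKM (SD, n = 2). Mafg was the largest part of the sum in every library. In the SB431542 experiment its share was 52.4% to 56.8% in DMSO and 56.9% to 58.7% with SB431542. In the T-5224 experiment it was 54.6% to 55.0% in DMSO and 63.0% to 64.8% with T-5224. The share of Mafk was 40.5% ± 1.71 (SD, n = 2) in DMSO and 29.5% ± 1.24 (SD, n = 2) with T-5224, so its RNA rose while its share of the small MAF sum was lower. The summed level over that of Bach1 was 4.25 and 4.66 in DMSO and 17.9 and 19.2 with T-5224, whereas it was 5.71 to 7.02 in DMSO and 6.26 to 7.08 with SB431542. Sums, shares and ratios are descriptions with no test.

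**Figure D2:**
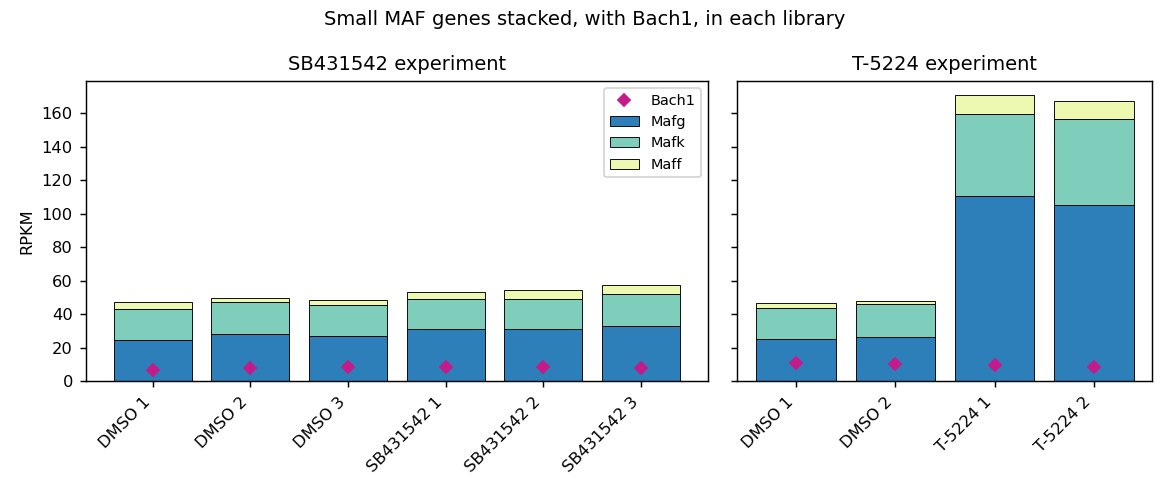
Stacked bars give the RPKM of Mafg, Mafk and Maff in each library from 0, and diamonds give Bach1 in the same unit. The T-5224 bars reach 170.6 and 167.3 RPKM and the other 8 bars lie between 46.5 and 57.6 RPKM, while every Bach1 point lies between 6.73 and 10.9 RPKM.

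Annotated exons of Mafg overlap those of Sirt7 on the same strand, and exons of Mafk overlap those of Tmem184a on the opposite strand. Sirt7 and Tmem184a are named for this overlap alone. Sirt7 had a log2 fold change of 0.11 with T-5224 (limma adjusted p = 0.164) and −0.09 with SB431542 (limma adjusted p = 0.315). Tmem184a fell by 0.58 on the log2 scale with T-5224 (limma adjusted p = 8.00e-06) and by 0.34 with SB431542 (limma adjusted p = 0.00977). The libraries were made with a stranded kit, and whether reads were counted by strand is not given in the sources used here.

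Bach1 (chr16:87699190-87733591, plus strand) encodes the repressor that competes with NRF2 for the small MAF proteins and is released from DNA by heme. It was at 10.9 and 10.4 RPKM in DMSO and at 9.54 and 8.71 RPKM with T-5224. The groups did not overlap, and Bach1 fell by 0.21 on the log2 scale (SE 0.08, limma adjusted p = 0.0246). This call was lost without DMSO replicate 1 (adjusted p = 0.0779) and without T-5224 replicate 2 (adjusted p = 0.201). With SB431542, Bach1 was at 8.54, 8.60 and 8.14 RPKM against 6.73, 8.23 and 8.48 RPKM in DMSO. Those groups overlapped, and the log2 fold change was 0.11 (95% interval −0.10 to 0.32, limma adjusted p = 0.421).

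The genes known to be repressed by BACH1 or activated by NRF2 through small MAF sites, a list of 13, were nearly all higher with T-5224. Of the 13, 11 rose, 10 of them more than 2-fold, and 2 fell (Slc40a1 and Fech), where 40.3% of all genes rose and 39.4% fell, with a median log2 fold change of 1.78 against 0.00 for all genes. Hmox1, which encodes the heme-degrading enzyme heme oxygenase 1, was at 21.5 and 22.2 RPKM in DMSO and at 482 and 534 RPKM with T-5224. The treated libraries were far above DMSO (log2 fold change 4.51, SE 0.06, limma adjusted p = 3.94e-13). Gclm, a subunit of the enzyme that starts glutathione synthesis, rose by 3.21 on the log2 scale (SE 0.06, limma adjusted p = 3.31e-12), from 19.2 ± 1.20 to 182 ± 6.43 RPKM (SD, n = 2 each). Slc40a1, the iron exporter ferroportin, went the other way and fell by 2.65 on the log2 scale (SE 0.09, limma adjusted p = 2.30e-10), from 17.9 ± 0.150 to 2.43 ± 0.271 RPKM (SD, n = 2 each).

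With SB431542, 4 of the 13 genes on this list were higher (Fth1, Nqo1, Gclm and Txnrd1), where 10.2% of all genes were, and Slc40a1 was lower, where 10.0% were, with a median log2 fold change of 0.07 against 0.01 for all genes. The count of 4 was 2 without SB431542 replicate 1, 2 or 3. Gclm rose by 0.34 on the log2 scale (SE 0.06, limma adjusted p = 0.00776) and Slc40a1 fell by 1.43 (SE 0.17, limma adjusted p = 0.00215), from 3.95 ± 1.04 to 1.13 ± 0.101 RPKM (SD, n = 3 each). Hmox1 was at 11.0 ± 0.514 RPKM in DMSO and at 11.0 ± 0.288 RPKM with SB431542 (SD, n = 3 each), with overlapping groups and a log2 fold change of 0.00 (95% interval −0.14 to 0.13, limma adjusted p = 0.985).

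Of the large MAF genes and the genes for the partners of small MAFs, 4 that are reported here were tested with T-5224. Of these, 2 rose and 2 fell, against 40.3% and 39.4% of all genes. Maf, which encodes a large MAF factor with an activation domain that the small MAFs lack, fell by 2.93 on the log2 scale (SE 0.08, limma adjusted p = 4.26e-11), from 21.8 and 22.8 RPKM to 2.41 and 2.56 RPKM. Nfe2l3 fell by 0.51 (SE 0.10, limma adjusted p = 5.83e-04). Nfe2l1, the gene of the small MAF partner NRF1, rose by 1.16 (SE 0.05, limma adjusted p = 2.43e-09). Nfe2l2, the gene of NRF2, was at 41.2 and 40.0 RPKM in DMSO and at 81.0 and 80.5 RPKM with T-5224, a rise of 0.98 on the log2 scale (SE 0.05, limma adjusted p = 1.21e-08). Nfe2l2 was named after its values were seen.

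With SB431542, 1 of the 5 reported genes that were tested rose and 2 fell, against 10.2% and 10.0% of all genes. Nfe2l1 fell by 0.37 on the log2 scale (SE 0.06, limma adjusted p = 0.00601). Nfe2l3 fell by 1.04 (SE 0.10, limma adjusted p = 9.40e-04), the only one of these changes past 2-fold. Nfe2l2 rose by 0.30 (SE 0.07, limma adjusted p = 0.0195), a call that was lost without each of the libraries other than DMSO replicate 1, with adjusted p between 0.0500 and 0.0876. Maf had a log2 fold change of −0.38 (limma adjusted p = 0.0524), and it passed the test without DMSO replicate 3 (adjusted p = 0.0238).

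**Figure D3:**
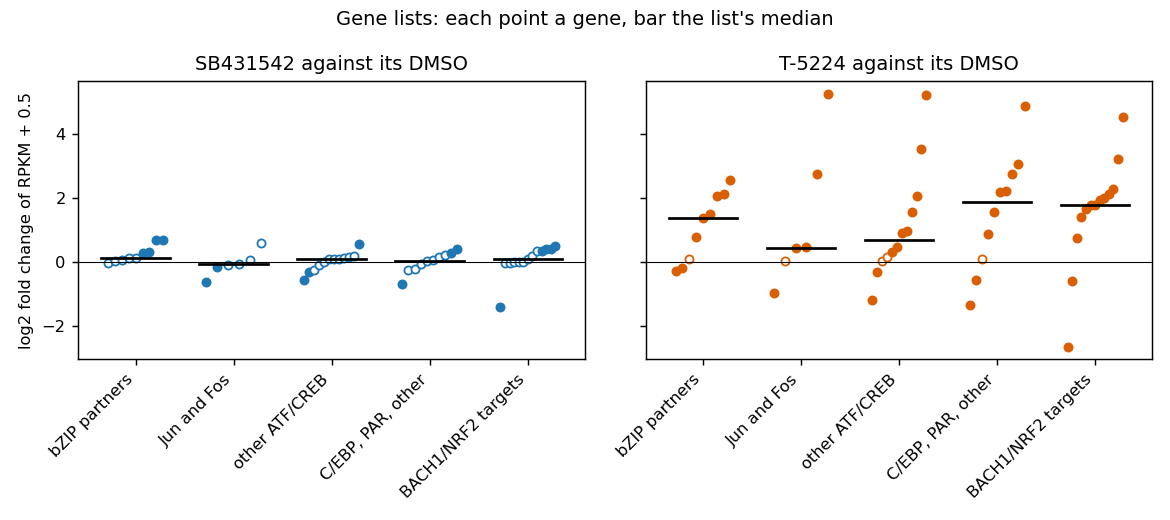
Each point is the log2 fold change of 1 tested gene, filled where the adjusted p is under 0.05, and black bars are list medians, for SB431542 on the left and T-5224 on the right. With T-5224 the BACH1/NRF2 targets have a median of 1.78 with 11 of 13 points filled above 0.

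Batf3 (chr1:192922293-192932822, plus strand), best known for the development of cross-presenting dendritic cells, was the least abundant member in DMSO and had the highest log2 fold change of the 9 with T-5224. It was at 0.657 and 0.392 RPKM in DMSO and at 5.32 and 5.70 RPKM with T-5224. In reads this is about 14.9 and 10.9 in the DMSO libraries and about 195 and 200.0 in the T-5224 libraries, worked out from its longest annotated transcript. The groups were far apart, with a log2 fold change of 2.56 (SE 0.14, limma adjusted p = 1.23e-08), which was 3.20 with a pseudocount of 0.1 in place of 0.5 RPKM and lower with one of 1. On the plain RPKM scale the group means differed 10.5-fold. With SB431542 it was at 2.11, 2.86 and 2.92 RPKM against 1.39, 1.14 and 1.80 RPKM in DMSO. Every treated library lay above every DMSO library (log2 fold change 0.69, SE 0.16, limma adjusted p = 0.0225). Its order with Maff (0.67) depends on the setting with SB431542: Maff was the higher with a pseudocount of 1 (0.60 against 0.57) and without SB431542 replicate 2 (0.65 against 0.63) or DMSO replicate 1 (0.82 against 0.68). The Batf3 call was lost without DMSO replicate 2 (adjusted p = 0.0614) and without SB431542 replicate 2 (0.0915) or 3 (0.0958). Of the IRF factors with which BATF3 and JUN are known to bind DNA in immune cells, Irf8 was at most at 0.034 RPKM and Irf4 was not listed, so it has no value. Clec9a, a marker of those dendritic cells, was not listed either. Xcr1, also on the immune list, was listed in both experiments, at no more than 0.096 RPKM in any library.

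Jdp2 (chr12:86940366-86980827, plus strand) encodes a repressor that pairs with JUN or ATF2. It was at 6.01 and 6.50 RPKM in DMSO and at 18.9 and 18.0 RPKM with T-5224. The treated libraries were well above both DMSO libraries (log2 fold change 1.49, SE 0.07, limma adjusted p = 6.80e-09). With SB431542 the levels were 12.0, 13.6 and 11.4 RPKM against 13.2, 12.0 and 10.9 RPKM in DMSO. Those groups overlapped, and the log2 fold change was 0.04 (95% interval −0.17 to 0.26, limma adjusted p = 0.782).

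The 3 ATF members differed from each other. Atf1 (chr15:100058250-100091675, plus strand), a CREB relative that binds the CRE, was at 12.2 and 11.3 RPKM in DMSO and at 21.4 and 19.8 RPKM with T-5224. It rose by 0.78 on the log2 scale with no overlap between groups (SE 0.07, limma adjusted p = 1.17e-06). With SB431542 it was at 31.5, 33.7 and 35.5 RPKM against 29.7, 25.9 and 26.0 RPKM in DMSO. Again the groups did not overlap (log2 fold change 0.30, SE 0.07, limma adjusted p = 0.0292), but the call was lost without each library other than DMSO replicate 1, with adjusted p between 0.0583 and 0.119.

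Atf2 (chr2:73654566-73730696, minus strand), which encodes a JUN partner activated by stress kinases, was at 10.3 and 9.98 RPKM in DMSO and at 8.77 and 7.65 RPKM with T-5224. It fell by 0.29 on the log2 scale with no overlap (SE 0.08, limma adjusted p = 0.00655), and without T-5224 replicate 2 the adjusted p was 0.0959. With SB431542 it was at 10.7, 10.7 and 9.96 RPKM against 10.0, 10.9 and 10.2 RPKM in DMSO, with overlapping groups (log2 fold change 0.01, 95% interval −0.13 to 0.15, limma adjusted p = 0.931). Atf7 (chr15:102364008-102455881, minus strand), a close relative of Atf2, was at 11.4 and 11.4 RPKM in DMSO and at 12.6 and 11.7 RPKM with T-5224 (log2 fold change 0.09, 95% interval −0.06 to 0.25, limma adjusted p = 0.248). With SB431542 it was at 14.3, 14.7 and 14.9 RPKM against 13.4, 14.0 and 13.3 RPKM in DMSO (log2 fold change 0.11, 95% interval −0.01 to 0.23, limma adjusted p = 0.180). In neither experiment did the Atf7 groups overlap, and in neither did it pass the test.

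**Figure D4:**
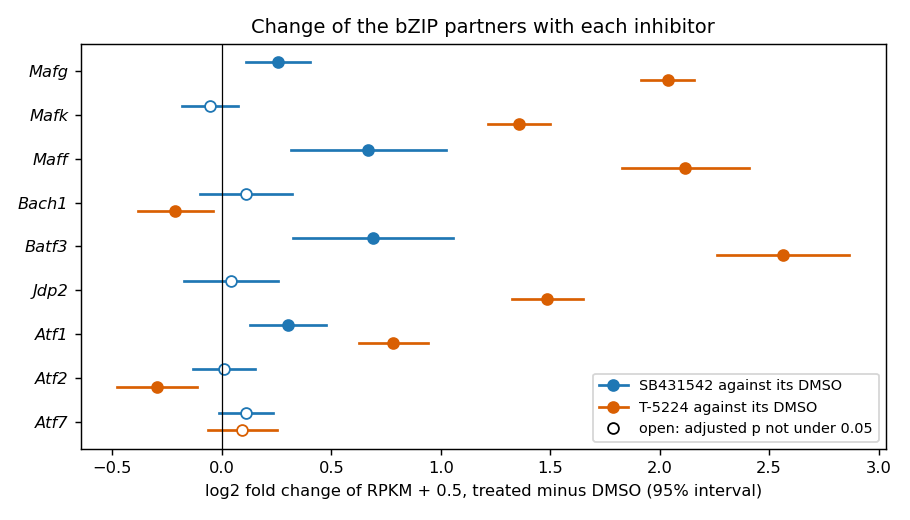
Log2 fold changes of the 9 listed members with SB431542 and with T-5224, each against its own DMSO libraries, with lines for 95% intervals and open points where the adjusted p is not under 0.05. With T-5224 the 5 members beyond 1 are Batf3 (2.56), Maff (2.12), Mafg (2.04), Jdp2 (1.49) and Mafk (1.36), and with SB431542 the 2 highest are Batf3 (0.69) and Maff (0.67).

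The coactivators of CREB and ATF1, a list of 5, held 2 genes that rose and 2 that fell with T-5224, against 40.3% and 39.4% of all genes, with a median log2 fold change of −0.11 against 0.00. Crtc2 rose by 0.58 on the log2 scale (SE 0.07, limma adjusted p = 7.04e-06) and Crtc3 by 0.49 (SE 0.08, limma adjusted p = 1.29e-04), while Crtc1 fell by 0.34 (SE 0.08, limma adjusted p = 0.00240). With SB431542, 0 of the 5 passed the test in limma, where 10.2% of all genes rose and 10.0% fell. The median was −0.07 against 0.01. Of the 6 tested JNK and p38 kinase genes, whose products phosphorylate ATF2 and ATF7, 3 rose and 2 fell with T-5224 (median 0.14), which is also near those shares of all genes. Mapk12 rose by 1.07 (SE 0.10, limma adjusted p = 9.32e-07), Mapk9 rose by 0.88 (SE 0.09, limma adjusted p = 4.06e-06) and Mapk11 fell by 0.43 (SE 0.12, limma adjusted p = 0.00719). With SB431542, 2 of the 6 kinase genes rose (Mapk12 and Mapk13, median 0.12), where 10.2% of all genes rose, a count that was 0 without DMSO replicate 3 or SB431542 replicate 1, 2 or 3.

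The JUN and FOS genes, whose products these members can pair or compete with, also moved in both directions with T-5224. Of 6 tested, 4 rose and 1 fell, against 40.3% and 39.4% of all genes, with a median log2 fold change of 0.43 against 0.00. Fosl1 rose by 5.25 on the log2 scale (SE 0.09, limma adjusted p = 2.69e-12), from 0.201 and 0.252 RPKM to 26.7 and 27.5 RPKM, and Fos rose by 2.74 (SE 0.10, limma adjusted p = 6.17e-10). Both passed the filter only through the treated libraries. Jun rose by 0.43 (SE 0.05, limma adjusted p = 1.35e-05) and Junb by 0.44 (SE 0.05, limma adjusted p = 8.75e-06). Fosl2, the most abundant FOS family gene in DMSO, fell by 0.99 (SE 0.05, limma adjusted p = 1.11e-08). Jund had a log2 fold change of 0.03 (95% interval −0.09 to 0.15, limma adjusted p = 0.605), with overlapping groups.

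With SB431542, 0 of the 6 tested JUN and FOS genes rose and 2 fell, where 10.2% and 10.0% of all genes did, with a median log2 fold change of −0.08 against 0.01. Fosl2 fell by 0.62 on the log2 scale (SE 0.09, limma adjusted p = 0.00400) and Jun by 0.17 (SE 0.05, limma adjusted p = 0.0399). The Jun call was lost without each library other than DMSO replicate 1, with adjusted p between 0.0604 and 0.148. Without DMSO replicate 1, Fosl1 was higher (adjusted p = 0.0155) and Junb was lower (0.0389), where with all libraries the log2 fold changes were 0.59 (limma adjusted p = 0.0770) and −0.09 (0.227). Jund was at 0.03 (limma adjusted p = 0.864) and Fos at −0.07 (0.760). Fosb was under the filter in both experiments, at 0.396 to 0.627 RPKM over all 10 libraries.

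Among the other ATF and CREB genes, 8 of 12 tested rose and 2 fell with T-5224 (1 without DMSO replicate 1 or T-5224 replicate 2), against 40.3% and 39.4% of all genes, with a median log2 fold change of 0.67. Atf3, a stress-induced factor, went from 2.24 and 2.26 RPKM to 101 and 101 RPKM, a rise of 5.21 on the log2 scale (SE 0.06, limma adjusted p = 2.73e-13). Atf4, the effector of the integrated stress response, rose by 3.52 (SE 0.05, limma adjusted p = 6.70e-13) and Atf6, a sensor of endoplasmic reticulum stress, by 2.03 (SE 0.07, limma adjusted p = 2.26e-10). With SB431542, 1 of the 12 rose and 2 fell, where 10.2% and 10.0% of all genes did. Atf4 rose by 0.55 (SE 0.06, limma adjusted p = 0.00189). Those that fell were Creb3 and Creb3l2, a count that was 4 without DMSO replicate 1 and 1 without any of the other libraries. Atf3 then had a log2 fold change of −0.11 (limma adjusted p = 0.470, and 0.0277 without DMSO replicate 1), and Atf6 of −0.02 (0.911).

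The C/EBP, PAR and further bZIP genes had the highest list median with T-5224, 1.86, with 7 of 10 tested higher and 2 lower, against 40.3% and 39.4% of all genes. Ddit3, which encodes the stress factor CHOP, rose by 4.85 on the log2 scale (SE 0.07, limma adjusted p = 3.98e-13), from 18.0 and 20.9 RPKM to 570.3 and 577 RPKM. Cebpd rose by 3.04 (SE 0.08, limma adjusted p = 2.68e-11) and Cebpb by 2.75 (SE 0.05, limma adjusted p = 3.29e-12). With SB431542, 2 of the 10 rose and 1 fell, where 10.2% and 10.0% of all genes did (median 0.03 against 0.01). The count of rises was 1 without DMSO replicate 2 or 3 or SB431542 replicate 1, and 0 without SB431542 replicate 2 or 3, and the count of falls was 2 without DMSO replicate 1. Cebpd rose by 0.39 (SE 0.09, limma adjusted p = 0.0206), a call lost without DMSO replicate 2 and without SB431542 replicate 2 or 3, with adjusted p between 0.0650 and 0.0789. Ddit3 had a log2 fold change of 0.02 (limma adjusted p = 0.869) and Cebpb of 0.16 (0.242).

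In the DMSO libraries of both experiments, Maff and then Batf3 closed the order of the members by level. In DMSO of the T-5224 experiment it ran from Mafg (25.9 ± 0.512 RPKM, SD, n = 2) through Mafk, Atf1, Atf7, Bach1, Atf2, Jdp2 and Maff to Batf3 (0.524 ± 0.187 RPKM). In that order Atf1 and Atf7 overlapped, and no other pair of neighbours did. In DMSO of the SB431542 experiment it ran from Atf1 (27.2 ± 2.16 RPKM, SD, n = 3) through Mafg, Mafk, Atf7, Jdp2, Atf2, Bach1 and Maff to Batf3 (1.45 ± 0.333 RPKM). There Atf1 overlapped Mafg and Jdp2 overlapped Atf2. Mean RPKM of Atf1 was 27.2 in one set of DMSO libraries and 11.8 in the other, which were normalized apart and were not tested against each other.

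The genes nearest in profile to the members that changed most were found over all 10 libraries, as the root mean square difference of log2(RPKM + 0.5) after setting each DMSO mean to 0, among the 10462 genes tested in both experiments. For Batf3 they were Sat1 (0.192), Srm (0.200) and Tfrc (0.204), which encode a polyamine acetyltransferase, spermidine synthase and the transferrin receptor. For Maff they were Fth1 (0.179), Tubb6 (0.185) and Clec2f (0.192), which encode the ferritin heavy chain, a beta tubulin and a C-type lectin. The log2 fold changes of these 6 genes lay between 1.89 and 2.61 with T-5224 and between 0.47 and 0.81 with SB431542. Values near those of Batf3 and Maff follow from how these genes were chosen.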

How the data were processed

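Reads of the 10 libraries were aligned to mm9 by the authors with TopHat, and HOMER gave the deposited RPKM, 1 table for each experiment. The annotation and the strand setting are not given in the sources used here. RPKM corrects for gene length and depth, so shifts in a few abundant genes move all others. Entries whose name reads as a date (22 and 23) were dropped, and 0 columns were left out. The DMSO columns of the T-5224 table are numbered 1 and 2, where the labels give 4 and 5.

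Genes with a mean of at least 1 RPKM in a table were tested after log2(RPKM + 0.5), using limma 3.58.1 (R 4.3.3). Variances were moderated by empirical Bayes with a trend on the mean, and p-values were adjusted by Benjamini-Hochberg over all genes tested. Fold changes are on that scale, which understates low genes. The study calls the replicates biological, but the labels do not say whether they came from separate cultures, so p-values measure only the spread between these libraries. Depth was estimated from the whole-read steps of short genes. The scripts were tested on simulated data.

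The members, gene lists and tests were chosen with earlier results of these data known. Genes named are all members, the JUN and FOS genes, the 3 genes of each further list with the largest change among those that passed in either experiment, and 3 nearest profiles for the members with the largest changes in the fit as described (Batf3 with each inhibitor, and Maff next with T-5224). Genes outside this rule are named for some counts of 5 or fewer, though not for all such counts, or as said beside them. Alternatives were pseudocounts of 0.1 and 1, no filter or a mean of 5 RPKM, median centring, quantile normalization, no trend, an unadjusted p, a log2 fold change also beyond 1, a block of replicate numbers (SB431542 only), and each library left out in turn. Positions are from GENCODE on NCBIM37 (mm9). Promoters are from RefSeq. Proteins were not analysed here. For the large MAF and CNC genes, 1 gene is not reported here, so that list has counts and no median.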

Additional observations from a re-analysis of the deposited data

How the results depend on the processing

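The 6 rises with T-5224 kept their direction under every alternative that tested them. They also passed the test, except for Atf1 with a log2 fold change also beyond 1, where the count was 5. With a mean of at least 5 RPKM it was 5 as well, since Batf3 is then not tested. The 2 falls with T-5224 became 1 with no filter on low values and 0 with a log2 fold change also beyond 1, and ranged from 0 to 2 with 1 library left out. The 4 rises with SB431542 became 1 with no filter, 2 with a mean of at least 5 RPKM (2 of the 4 are then not tested), 3 with quantile normalization and 0 with a log2 fold change also beyond 1, and ranged from 0 to 4 with 1 library left out. With the replicate number as a block the count was 2 (Batf3 and Maff), but same-numbered SB431542 and DMSO libraries did not deviate together (correlations of −0.15, 0.15 and −0.09), so the numbers are not taken as a pairing. No paired analysis was possible because the T-5224 and DMSO columns of the T-5224 experiment share no replicate numbers in the labels. Fits that leave 1 library in an arm assume that it varies like the others.

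Changes near 0 that did not pass the test turned sign. With SB431542 and 1 library left out, Atf2 ranged from −0.014 to 0.042, Jdp2 from −0.030 to 0.11, Jund from −0.11 to 0.12, Fos from −0.18 to 0.067, Atf6 from −0.072 to 0.042, Ddit3 from −0.049 to 0.087 and Hmox1 from −0.022 to 0.034 on the log2 scale. Quantile normalization gave 0.0075 for Atf6, −0.011 for Ddit3 and 0.021 for Hmox1, and median centring gave 0.0021 for Hmox1. With T-5224, Jund was at −0.038 with quantile normalization and ranged from −0.0064 to 0.067 with 1 library left out. The cause was not tested. Depth limits Batf3 most, with about 10.9 and 14.9 reads in DMSO of the T-5224 table.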
